A study of Danio rerio with 6 samples.

Results

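The genes described here are those of the muscle sarcomere, the contractile unit of striated muscle. They were chosen by a rule on their names, with earlier results of these data known. A gene was a member where its symbol began as those of the myosin heavy chains, myosin light chains, skeletal and cardiac actins, troponins C, I and T, tropomyosins, myosin binding proteins C, myomesins or alpha-actinins do. The rule found 73 genes of the 19260 that had a transcript cluster of their own on the array. Of these, 23 were classed from background knowledge as fast skeletal, 11 as slow skeletal and 12 as cardiac, and 14 stayed unclassed. The other 13 were smooth muscle or non-muscle genes with sarcomeric names, such as the non-muscle myosins myh9a and myh10, so the name of the group did not hold for them, nor for the unclassed tnni3k, which encodes a kinase.

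The study asked which genes change when oligodendrocytes, the myelin-forming cells of the central nervous system, are removed. All 6 arrays were made from zebrafish larvae of the line Tg (mbp:nfsB-egfp) at 10 days post fertilization (dpf), in which the promoter of the myelin basic protein gene drives a bacterial nitroreductase joined to green fluorescent protein. The control group (3 arrays) was kept in 0.2% DMSO. The metronidazole treated group (3 arrays) received 5 mM metronidazole in 0.2% DMSO from 5 dpf for 5 days in the dark. The methods do not say whether the control larvae were kept in the dark. Nitroreductase turns metronidazole into a toxic product inside the cells that carry it. Both groups carried the transgene, and wild-type larvae given the drug were not on these arrays. An effect of the drug itself and an effect of the loss of oligodendrocytes therefore cannot be told apart, nor can an effect of light if it differed. RNA came from pools of 5 whole larvae, which hold skeletal muscle, heart and smooth muscle together, and with such samples fewer cells of a type and less RNA per cell cannot be told apart.

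A sarcomere is built from thick filaments of myosin, whose heads pull, and thin filaments of actin, along which tropomyosin and the troponin complex lie. Calcium released from the sarcoplasmic reticulum binds troponin C, troponin I then frees the thin filament, and troponin T holds the complex on tropomyosin. Myosin binding protein C lies along the thick filament, myomesin ties thick filaments together, and alpha-actinin anchors thin filaments at the Z-disc. Fast, slow and cardiac fibres use different genes for the same parts, and in the larval trunk of zebrafish a superficial layer of slow fibres covers the fast fibres that make up most of the muscle.

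The values were log2 signals as deposited, and the array medians lay between 5.096 and 5.145. Precision was limited by the 3 arrays a group and by the spread between them, and arrays have no read depth. The standard error (SE) was 0.13 for actn3b and 1.09 for acta1b, for example. Expression of mbpa, the gene of the targeted cells, was 8.69, 8.61 and 8.77 in the control arrays and 8.28, 8.71 and 8.66 in the metronidazole arrays, and these overlapped (log2 difference -0.14, SE 0.16, and -0.0064, SE 0.15, with both arrays of replicate 1 left out). Replicate 1 stood apart in several tissues, for gut enterocyte and epidermis markers mostly in its metronidazole array. In the metronidazole array of replicate 1 the 8 gut enterocyte markers had a median of -1.97 relative to each gene's mean over the 6 arrays, against 0.06 and -0.41 in the other metronidazole arrays, and the 13 epidermis markers had -1.66 against 0.08 and 0.05. For the fast skeletal members both arrays of replicate 1 stood apart, as set out below, so several results are also given without them.

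No sarcomere gene passed the test between the groups. Across all 75212 transcript clusters, limma with Benjamini-Hochberg adjustment called 0 (0%) at an adjusted p under 0.05, and so 0 of the 73 members, whose lowest adjusted p was 0.952. At an unadjusted p under 0.05, 1 member was lower in metronidazole treated larvae, 1.37% of the members beside 4.27% of all genes, and 0 were higher beside 1.68% of all genes. The unpaired t-test, which the methods name for comparisons in general, gave 0 members at the adjusted p and 0 at the unadjusted p (2.61% of all genes lower and 2.25% higher). For the arrays the study states a criterion of 2-fold change. In 1 member every metronidazole array lay below every control array (5.73% of all genes), in 0 members every metronidazole array lay above (5.14% of all genes), and 0 members differed by 2-fold in either direction (2.02% of all genes lower and 0.218% higher). Of the members 46 (63%) had a negative difference, as did 46.5% of all genes, and 27 had a positive difference, as did 53.5%.

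The classes lay close to each other. The median log2 difference, metronidazole minus control, was -0.05 for the fast skeletal members, -0.09 for the slow skeletal members, -0.01 for the cardiac members and -0.03 for the smooth or non-muscle members, beside 0.02 for all genes. These medians depended on single arrays. Without the metronidazole array of replicate 1 they were 0.16 for the fast, 0.09 for the slow and 0.08 for the cardiac members, and without the control array of replicate 1 they were -0.31, -0.29 and -0.11. Counts of members moved with the same arrays, and so did the background. With both arrays of replicate 1 left out, 4 members were lower and 1 was higher at an unadjusted p under 0.05 (7.89% and 4.47% of all genes), and 17 lower and 6 higher members had groups that did not overlap (21.7% and 28.2% of all genes). Without only the control array of replicate 1, 13 lower and 2 higher members did not overlap (16.2% and 20.2% of all genes), and 7 were lower and 0 higher at an unadjusted p under 0.05 (7.91% and 5.23% of all genes). With array weights 6 were lower and 1 higher at that p (7.4% and 4.47% of all genes). In the fit of all 6 arrays without a replicate term, the 95% interval lay within a 2-fold change in either direction for 55 of the 73 members. For the other 18, 8 of them fast skeletal, it did not, so that fit cannot tell whether those differed by 2-fold. With the replicate number added to the fit as a block, the SE was smaller for acta1b (0.22 against 1.09) and myl1 (0.17 against 0.57), for example. It was larger for tnni4b.1 (0.31 against 0.27).

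**Figure D1:**
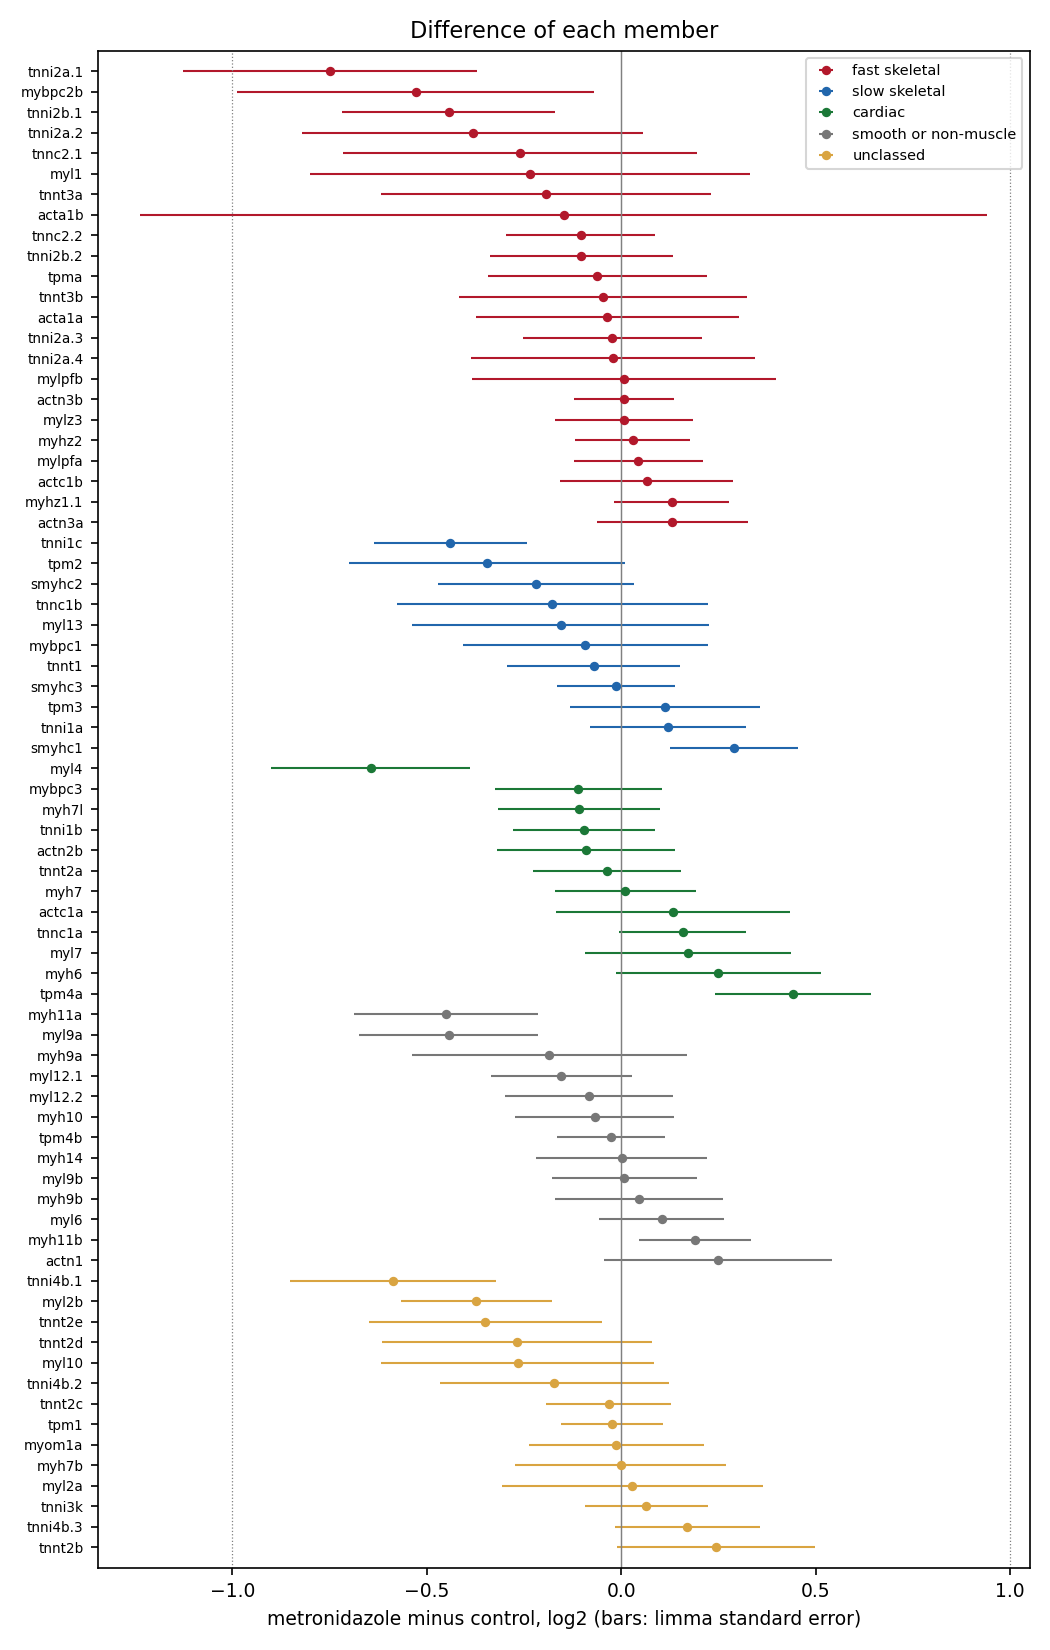
Log2 difference between metronidazole treated and control larvae for each of the 73 members (points), with the limma standard error (bars), coloured by class, and dotted lines at a 2-fold change. The differences run from -0.75 for tnni2a.1 to 0.44 for tpm4a, and no point reaches a dotted line.

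Among the fast thick filament genes, the heavy chain myhz1.1, which encodes a motor protein of fast fibres, had the lowest p of its kind. It was 12.17, 12.41 and 12.56 in control and 12.46, 12.48 and 12.60 in metronidazole treated larvae. The groups overlapped, and the difference was 0.13 (SE 0.15). The other fast heavy chain with a transcript cluster of its own, myhz2, differed by 0.03 (SE 0.15). The myosin light chain gene myl1 was 10.50, 11.66 and 11.82 in control and 9.93, 11.62 and 11.73 in treated larvae, with the array of replicate 1 lowest in each group and a difference of -0.23 (SE 0.57). Without the metronidazole array of replicate 1 this value was 0.35. The light chain mylz3, shown because it was among the brightest members and chosen after its values were seen, was 12.73, 12.98 and 13.09 in control and 12.66, 13.02 and 13.13 in treated larvae. Its interval ran from 0.75 to 1.35 as a ratio of treated to control. The highest signals on the arrays were 13.73 to 13.79, and whether signals of this height were compressed was not tested. The regulatory light chain mylpfa differed by 0.04 (SE 0.17) and its paralogue mylpfb by 0.01 (SE 0.39). The fast isoform of myosin binding protein C, mybpc2b, was 7.89 and 8.01 in control replicates 2 and 3 and 7.27 and 7.24 in the metronidazole arrays of the same numbers, but 6.51 and 6.32 in the 2 arrays of replicate 1. Its difference was -0.53 (SE 0.46), and the groups overlapped. With both arrays of replicate 1 left out it was -0.70 (SE 0.15), without only the control array of replicate 1 it was -1.01, and without only the metronidazole array of replicate 1 it was -0.22.

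In the fast thin filament, the 6 genes for fast troponin I, the inhibitory subunit, all had negative differences, from -0.75 to -0.02. In the order of genes in RefSeq tnni2a.1 to tnni2a.4 lie beside each other, and so do tnni2b.1 and tnni2b.2. These copies may share probes, so they were not taken as independent. The largest difference of any member was that of tnni2a.1, which was 8.09, 8.73 and 8.24 in control and 6.92, 8.38 and 7.51 in treated larvae. The treated array of replicate 2 lay inside the control range. Its difference was -0.75 (SE 0.38, unadjusted p = 0.0904 in limma), with a 95% interval of -1.65 to 0.16, and without the metronidazole array of replicate 1 it was -0.41. The neighbouring copy tnni2a.4, chosen after its values were seen, was 10.08, 10.92 and 11.12 in control and 10.06, 10.89 and 11.10 in treated larvae. Arrays of the same number were thus nearly equal in the groups while they ranged widely within each, and the difference was -0.02 (SE 0.36). The copies tnni2b.1 and tnni2a.2 differed by -0.44 (SE 0.27) and -0.38 (SE 0.44).

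The calcium-binding subunit tnnc2.1 was 5.18, 6.76 and 6.58 in control and 5.44, 6.38 and 5.92 in treated larvae (difference -0.26, SE 0.46), and its neighbour tnnc2.2 differed by -0.10 (SE 0.19). Fast troponin T, which ties the complex to tropomyosin, was represented by tnnt3a at 6.74, 7.58 and 7.26 in control and 6.08, 7.29 and 7.63 in treated larvae. The groups overlapped (difference -0.19, SE 0.43). Tropomyosin of fast fibres, tpma, differed by -0.06 (SE 0.28). The actin gene actc1b, named for a cardiac gene but counted here with the fast skeletal actins of zebrafish, was 11.98, 12.40 and 12.68 in control and 12.14, 12.51 and 12.61 in treated larvae, with a difference of 0.07 (SE 0.22). The Z-disc genes actn3a and actn3b differed by 0.13 (SE 0.19) and 0.01 (SE 0.13).

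Slow skeletal genes gave values in both directions. The largest positive difference among them was that of smyhc1, the slow myosin heavy chain, which was 9.55, 9.29 and 9.34 in control and 9.42, 9.81 and 9.82 in treated larvae. Treated replicates 2 and 3 lay above all control arrays and treated replicate 1 did not (difference 0.29, SE 0.16, unadjusted p = 0.124 in limma). With both arrays of replicate 1 left out it was 0.50 (SE 0.15). Its neighbours in the genome smyhc2 and smyhc3 differed by -0.22 (SE 0.25) and -0.01 (SE 0.15). A second transcript cluster of smyhc2 differed by -0.01 (SE 0.24). The slow troponin I gene tnni1c was 5.47, 5.82 and 5.95 in control and 5.20, 5.11 and 5.61 in treated larvae, so that only treated replicate 3 lay inside the control range. Its difference was -0.44 (SE 0.20, unadjusted p = 0.0634 in limma).

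The remaining slow genes differed by less than their spread. The tropomyosin tpm2 had a difference of -0.34 (SE 0.35), and without the metronidazole array of replicate 1 it was 0.04. Troponin C of slow fibres, tnnc1b, was 8.44, 8.94 and 8.92 in control and 7.68, 8.84 and 9.24 in treated larvae, where the array of replicate 1 was lowest and that of replicate 3 highest of all 6. The difference was -0.18 (SE 0.40), and 0.28 without the metronidazole array of replicate 1. The light chain myl13, troponin T gene tnnt1 and myosin binding protein gene mybpc1 differed by -0.16 (SE 0.38), -0.07 (SE 0.22) and -0.09 (SE 0.31).

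The cardiac light chain myl4 was the member with the lowest p. Its signal was dim, and the fit limited to transcript clusters above the median signal left it out. In that fit 0 members were lower at an unadjusted p under 0.05 and 0 were lower without overlap. It was 5.16, 5.42 and 4.84 in control and 4.01, 4.80 and 4.68 in treated larvae, and the groups did not overlap, although the highest treated value (4.80) lay close to the lowest control value (4.84). The difference was -0.64 (SE 0.26, unadjusted p = 0.0414, adjusted p = 0.952 in limma). Arrays of replicates 1, 2 and 3 differed by -1.15, -0.62 and -0.16 between the groups. With both arrays of replicate 1 left out the difference was -0.39 (SE 0.24). In the opposite direction, tpm4a, a tropomyosin that the zebrafish heart uses, was 6.02, 6.17 and 6.15 in control and 6.87, 6.63 and 6.16 in treated larvae. Only treated replicate 3 lay inside the control range, and the difference was 0.44 (SE 0.20, unadjusted p = 0.0658 in limma). With both arrays of replicate 1 left out it was 0.24 (SE 0.21).

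The other cardiac members had smaller differences. The atrial heavy chain myh6 was 6.99, 6.46 and 6.18 in control and 7.05, 6.92 and 6.40 in treated larvae (difference 0.25, SE 0.26). With 1 array left out this ranged from 0.069 without control replicate 3 to 0.47 without control replicate 1. The actin gene actc1a, counted here as cardiac, was 10.89, 11.67 and 11.40 in control and 10.92, 11.59 and 11.85 in treated larvae (difference 0.13, SE 0.30). For actc1a, replicate 1 minus the mean of the others was -0.64 in control and -0.81 in treated larvae. The medians of this gap were -0.19 and -0.16 for cardiac and -0.64 and -0.60 for fast skeletal members. Whether the signal of actc1a came from the heart was not tested. Cardiac troponins C, I and T, tnnc1a, tnni1b and tnnt2a, differed by 0.16 (SE 0.16), -0.10 (SE 0.18) and -0.04 (SE 0.19). All values of tnnc1a and tnni1b lay below the array medians. The cardiac binding protein mybpc3 and the alpha-actinin actn2b differed by -0.11 (SE 0.21) and -0.09 (SE 0.23). The light chain member myl7 differed by 0.17 (SE 0.265), and cmlc1, a light chain gene of the heart list, by -0.14 (SE 0.16). Both had groups that overlapped.

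Of the smooth or non-muscle members, myl9a, a regulatory light chain of smooth muscle, had the lowest p. It was 6.30, 6.35 and 6.13 in control and 5.36, 5.87 and 6.22 in treated larvae, with only treated replicate 3 inside the control range (difference -0.44, SE 0.23, unadjusted p = 0.0972 in limma). Without the metronidazole array of replicate 1 it was -0.21. The smooth muscle heavy chain myh11a, chosen after its values were seen, had a difference of -0.45 (SE 0.24). Its paralogue myh11b, with all values below the array medians, lay in the other direction at 0.19 (SE 0.14). Among unclassed members the troponin I gene tnni4b.1 was 4.28, 5.05 and 4.86 in control and 4.54, 3.83 and 4.07 in treated larvae. Here treated replicate 1 lay inside the control range and the other treated arrays lay below it. The difference was -0.59 (SE 0.27, unadjusted p = 0.0645 in limma) and -1.01 (SE 0.18) with both arrays of replicate 1 left out. Its signal was dim, and all its values lay below the array medians. The troponin T gene tnnt2b had a difference of 0.24 (SE 0.25).

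**Figure D2:**
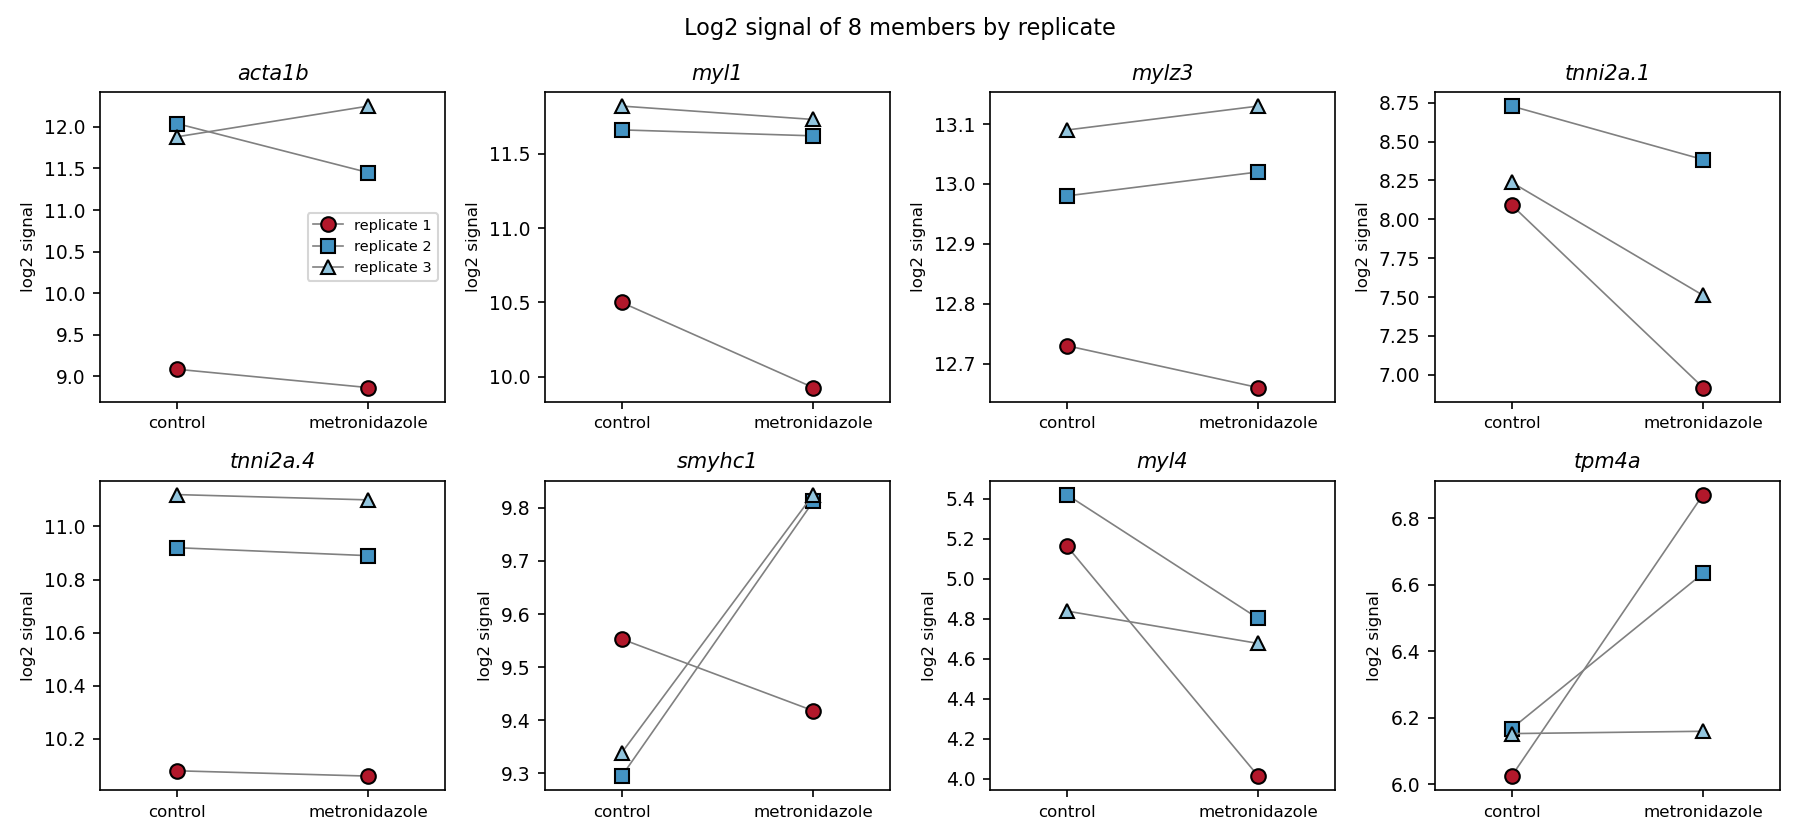
Log2 signal (vertical axes, which do not start at 0) of 8 members in control and metronidazole treated larvae, with 1 point per array and a line between arrays of the same replicate number. Replicate 1 of acta1b lies at 9.09 and 8.86 while the other 4 arrays lie between 11.45 and 12.25, and the treated arrays of myl4 (4.01 to 4.80) lie just below its control arrays (4.84 to 5.42).

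The fast skeletal members differed more between replicate numbers than between the groups. The array of replicate 1 was the lowest of its group in both groups for 22 of the 23 fast skeletal members (95.7%), beside 18.9% of all genes. The exception was actn3b. The same held for 6 of 11 slow skeletal members (54.5%), 3 of 12 cardiac members (25%) and 3 of 13 smooth or non-muscle members (23.1%), and for 40 of all 73 (54.8%). Replicate 1 was highest in both groups for 2 members, myh6 and tnni1a (2.74%), beside 19.4% of all genes. Replicate 1 was chosen for these counts after the values were seen, and the other replicates were not counted in this way. The gap to the share of all genes therefore depends in part on that choice. The medians of the fast skeletal members, relative to each gene's mean over the 6 arrays, were -0.36, 0.27 and 0.29 in control and -0.42, 0.14 and 0.20 in treated larvae. The same medians over all genes lay within 0.023 of 0.

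**Figure D3:**
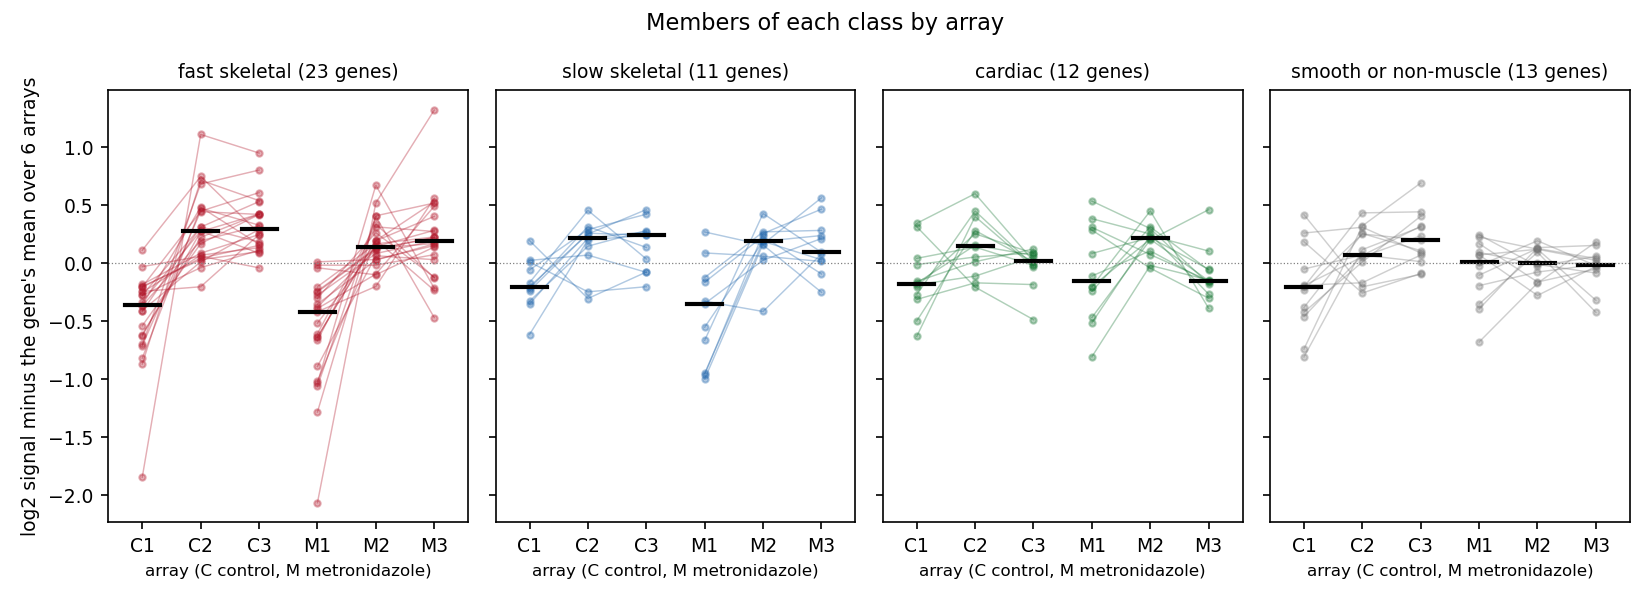
Log2 signal of each member minus its own mean over the 6 arrays (vertical axis), by array (C1 to C3 control, M1 to M3 metronidazole) and class, with a thin line for each gene in each group and a black bar at the class median. The fast skeletal medians lie at -0.36 and -0.42 in the arrays of replicate 1 and between 0.14 and 0.29 in the others.

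The largest gap was that of acta1b, a skeletal muscle actin, chosen after its values were seen. It was 9.09, 12.04 and 11.88 in control and 8.86, 11.45 and 12.25 in treated larvae, so replicate 1 lay 7.33-fold below the mean of the others in control and 7.92-fold below in treated larvae. A second transcript cluster of acta1b, at 4.83, 5.64 and 5.64 in control and 4.59, 5.55 and 6.29 in treated larvae, also had replicate 1 lowest in each group. For myl1 the corresponding folds were 2.37 and 3.35. All 23 fast skeletal members lay below the mean of replicates 2 and 3 in both groups, by medians of -0.64 in control and -0.60 in treated larvae. The median was -0.45 and -0.47 for the slow and -0.19 and -0.16 for the cardiac members, beside 0.03 and -0.02 for all genes. Fast members of the same larvae share their fibres, so these 23 genes do not count as 23 separate observations.

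**Figure D4:**
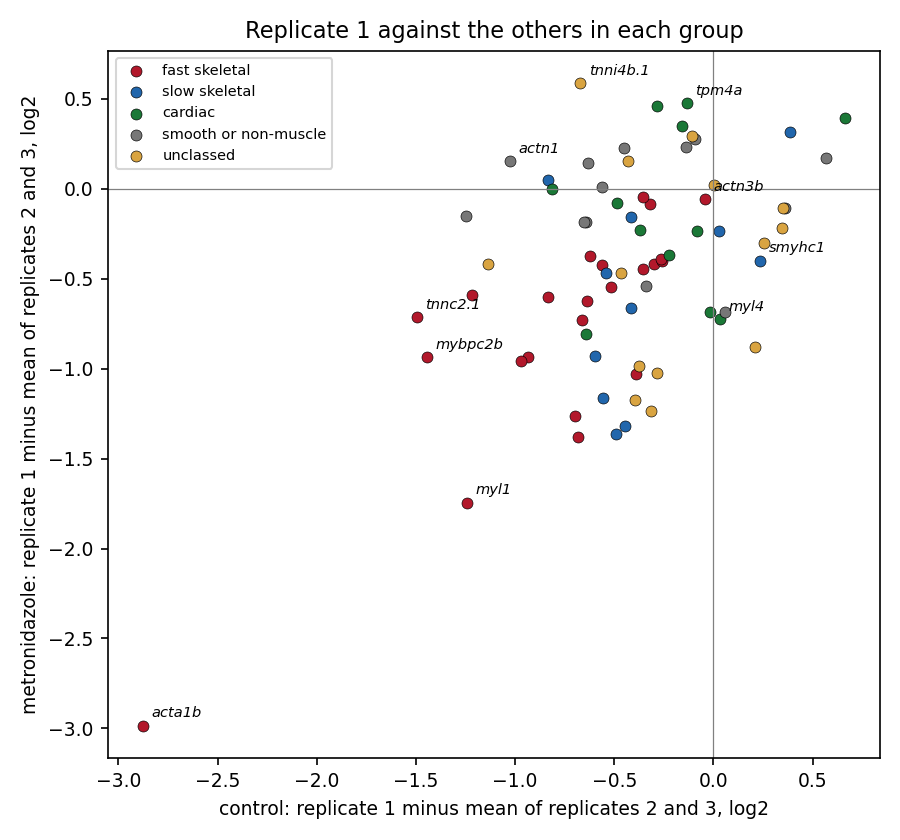
Replicate 1 minus the mean of replicates 2 and 3 in control larvae (horizontal axis, log2) against the same in metronidazole treated larvae (vertical axis, log2), with 1 point per member, coloured by class. All 23 fast skeletal members lie below 0 on both axes, with acta1b farthest at -2.87 and -2.99.

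The methods describe 3 batches of larvae, and each replicate number was read here as 1 batch. As a term in the limma fit it reached an unadjusted p under 0.05 for 15 of 23 fast skeletal members (65.2%), 6 of 11 slow members, 2 of 12 cardiac members and 0 of 13 smooth or non-muscle members, beside 10.3% of all genes. After adjustment over all transcript clusters it called 0 (0%), and the lowest adjusted p among members was 0.331, for acta1b. In short lists of other tissues, replicate 1 was lowest in both groups for 5 of 8 liver, 6 of 13 epidermis and 4 of 8 gut enterocyte markers. The same held for 3 of 5 erythrocyte and 4 of 9 neuron markers, beside 18.9% of all genes. It held for 3 of 19 heart, 1 of 10 smooth muscle and 2 of 7 oligodendrocyte and myelin genes. The gap was not equal in the 2 arrays. Replicate 1 minus the mean of the others had medians of -0.95 in control and -1.355 in treated larvae for liver markers. These were -1.27 and -0.48 for erythrocyte, -0.59 and -1.8 for gut enterocyte, -0.24 and -1.97 for epidermis and -0.03 and -0.26 for neuron markers. The part of these tissues in the pattern of the muscle genes was not tested.

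With the replicate number as a block, the standard errors of the fast skeletal members dropped from a median of 0.28 to 0.15, while those of all genes went from 0.19 to 0.17. The adjusted calls stayed at 0 of 75212 transcript clusters. At an unadjusted p under 0.05 the count of lower members went from 1 to 5, which was 6.85% of the members beside 6.9% of all genes, and the count of higher members stayed at 0 beside 2.38%. The 5 were tnni2a.1 (SE 0.20, unadjusted p = 0.0135, adjusted p = 0.588 in limma), mybpc2b, tnni2b.1, myl4 and tnni1c. The share of members was close to the background in this fit.

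Genes that build or serve the sarcomere were read from further lists, and limma called 0 of them at the adjusted p. Of 29 measured genes of the sarcomere scaffold and its assembly, 18 had a negative and 11 a positive difference, with a median of -0.03. The lowest p was that of lmod2b, a leiomodin that nucleates actin filaments, at 4.86, 4.74 and 4.51 in control and 5.65, 5.28 and 4.83 in treated larvae. Treated replicate 3 lay inside the control range (difference 0.55, SE 0.23, unadjusted p = 0.0492 in limma). The filamin gene flncb, which links actin filaments at the Z-disc, differed by 0.52 (SE 0.23), and by 0.21 (SE 0.20) with both arrays of replicate 1 left out. Replicate 1 was lowest in both groups for 16 of the 29 (55.2%).

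Of 25 genes of calcium release and excitation, 13 had a negative and 12 a positive difference (median 0.00). The junctophilin gene jph2, which holds the sarcoplasmic reticulum to the surface membrane, was 9.04, 8.91 and 8.90 in control and 9.08, 9.15 and 9.25 in treated larvae. It was higher without overlap (difference 0.21, SE 0.12), as were 5.14% of all genes, and it was the only 1 of the list without overlap. The calcium pump gene atp2a1l differed by 0.18 (SE 0.14). In this list replicate 1 was lowest in both groups for 11 genes (44%) and highest in both for 2 (8%), beside 18.9% and 19.4% of all genes. Replicate 1 minus the mean of the others had a median of -0.05 in control and -0.55 in treated larvae. The calcium store protein gene casq1a, chosen after its values were seen, had a wide gap, at 6.81, 9.69 and 9.95 in control and 6.45, 8.25 and 8.93 in treated larvae. Of 19 genes of muscle energy metabolism, 12 had a negative and 7 a positive difference (median -0.11). The phosphofructokinase gene pfkmb, of glycolysis, differed by -0.58 (SE 0.35), and the myoglobin gene mb, for oxygen storage, by 0.24 (SE 0.16). Replicate 1 was lowest in both groups for 10 of these 19 (52.6%) and highest in both for 1 (5.26%). The mitochondrial creatine kinase gene ckmt2a, also chosen after its values were seen, was 5.17 and 5.33 in the arrays of replicate 1 and between 6.54 and 7.47 in the others.

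Of 19 myogenic regulators, 6 had a negative and 13 a positive difference (median 0.10). The transcription factor gene prdm1a, which directs slow fibre fate in the zebrafish embryo, differed by 0.47 (SE 0.31), and by 0.074 (SE 0.17) with both arrays of replicate 1 left out. The gene myog, which drives myoblasts to differentiate, differed by -0.26 (SE 0.21).

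The list of muscle wasting and growth genes had the highest median of the muscle lists, 0.28 over 14 genes, of which 12 had a positive difference. At an unadjusted p under 0.05, 2 were higher and 0 lower (1.68% and 4.27% of all genes), and in 3 the treated arrays all lay above the control arrays (5.14% of all genes). The first was trim63a, a muscle ubiquitin ligase that marks sarcomere proteins for breakdown, at 9.48, 8.08 and 8.74 in control and 10.18, 9.55 and 9.54 in treated larvae. The lowest treated value lay just above the highest control value, which was that of replicate 1 (difference 0.99, SE 0.37, unadjusted p = 0.0333, adjusted p = 0.952 in limma). The ligase gene fbxo32, chosen after its values were seen, was 9.81, 8.19 and 8.76 in control and 10.09, 9.29 and 9.74 in treated larvae. Its groups overlapped through control replicate 1, and the difference was 0.79 (SE 0.42). The growth factor gene igf1 was 5.17, 4.99 and 5.06 in control and 5.34, 5.44 and 5.33 in treated larvae (difference 0.30, SE 0.12, unadjusted p = 0.0484 in limma). In the third, foxo3b, which encodes a transcription factor of muscle protein breakdown, the difference was 0.26 (SE 0.13). RNA came from whole larvae, and the tissue in which these genes differed was not tested. The list joins genes of breakdown with growth genes such as igf1, so its median is not a measure of muscle wasting.

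In this list replicate 1 more often stood on the other side. It was the highest of its group in both groups for 8 of the 14 genes (57.1%), beside 19.4% of all genes. The ligase gene trim55b, chosen after its values were seen, was 9.93, 7.80 and 8.08 in control and 10.17, 8.42 and 9.04 in treated larvae. Thus the arrays in which fast sarcomere genes were lowest were those in which trim63a, fbxo32 and trim55b were highest, in each group. The same held for trim55a, fbxo30a, foxo1a, foxo3b and ddit4, but not for the other genes of the list. Replicate 1 was highest in control but lowest in treated larvae for klf15 and for trim63b (8.20 and 7.13). It was lowest in both groups for 1 of the 14 (7.14%), beside 18.9% of all genes.

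**Figure D5:**
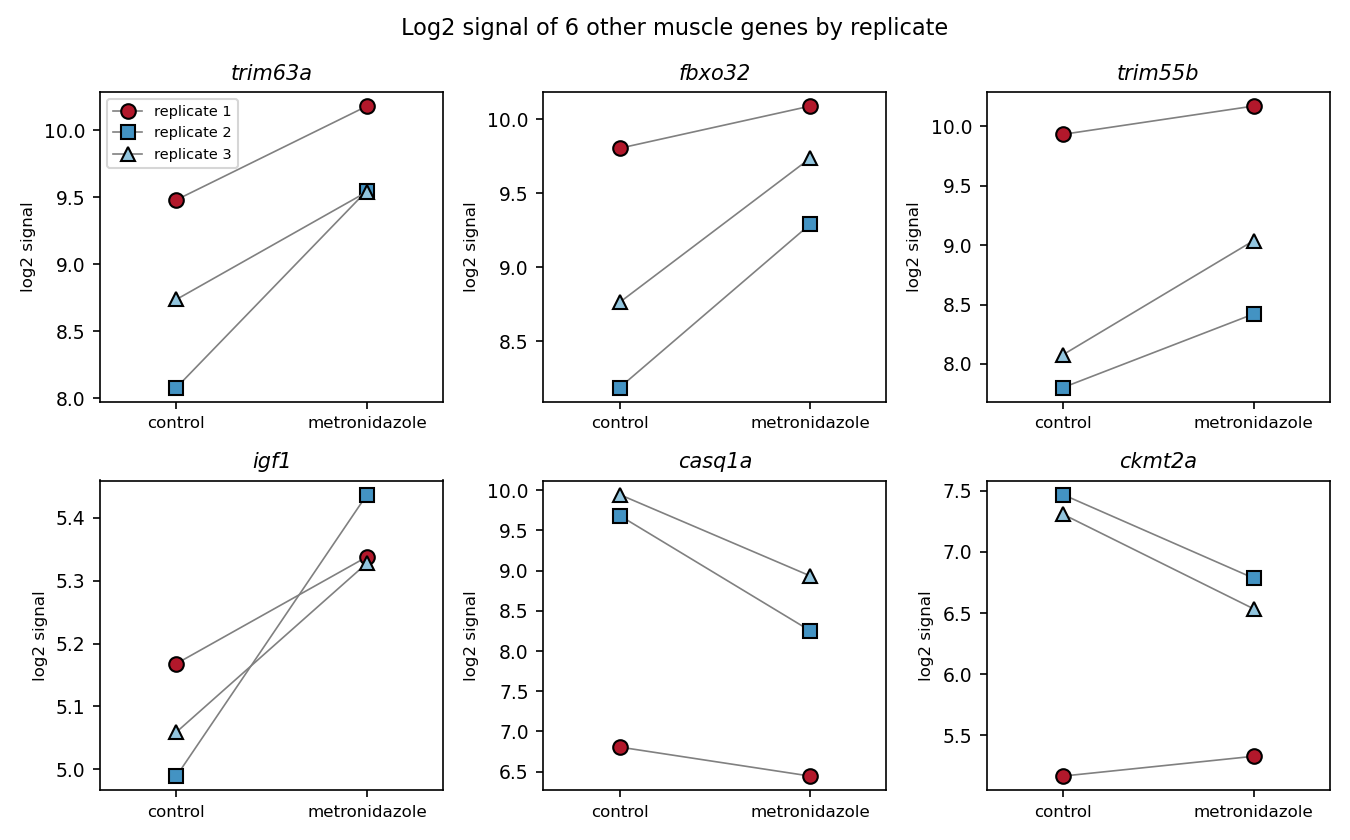
Log2 signal (vertical axes, which do not start at 0) of 6 other muscle genes in control and metronidazole treated larvae, with 1 point per array and a line between arrays of the same replicate number. Replicate 1 is highest in both groups for trim63a, fbxo32 and trim55b and lowest for casq1a (6.81 and 6.45) and ckmt2a (5.17 and 5.33).

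Markers of the other muscle types and cells were set beside these values. Of 19 heart genes, 11 had a negative and 8 a positive difference (median -0.01), and 1, gata5, a transcription factor of the heart and endoderm, was lower at an unadjusted p under 0.05 (4.27% of all genes). It was 7.02, 7.32 and 6.96 in control and 6.09, 6.39 and 6.54 in treated larvae (difference -0.76, SE 0.18, unadjusted p = 0.00378, adjusted p = 0.952 in limma), without overlap. The natriuretic peptide gene nppal differed by 0.23 (SE 0.12), with all treated arrays above the control arrays. Thus 1 heart gene was lower and 1 higher without overlap (5.73% and 5.14% of all genes). Of 10 smooth muscle genes, 6 had a negative difference (median -0.11). The actin-binding protein gene tagln, at 9.29, 9.02 and 8.99 in control and 8.42, 8.83 and 8.93 in treated larvae, did not overlap (difference -0.37, SE 0.18, and -0.13, SE 0.15, with both arrays of replicate 1 left out). With lmod1b, 2 smooth muscle genes were lower without overlap (5.73% of all genes) and 0 were higher. The gene cnn1b, which encodes a calponin, differed by -0.31 (SE 0.18). Of 12 listed oligodendrocyte and myelin genes only 7 were measured, and of these 3 had a negative and 4 a positive difference (median 0.03). The 2 with the lowest p, mag and sox10, a myelin glycoprotein and a glial transcription factor, differed by 0.29 (SE 0.13) and 0.25 (SE 0.14). In the other direction, olig2 and cldnk differed by -0.31 (SE 0.17) and -0.35 (SE 0.31). Of the 7, only mag had groups that did not overlap, with treated larvae higher (5.14% of all genes). The median difference was -1.53 for the 8 gut enterocyte, -0.70 for the 13 epidermis, -0.63 for the 8 liver, -0.26 for the 5 erythrocyte and 0.10 for the 9 neuron markers. Whether these shifts touched the values of the sarcomere genes was not tested.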

How the data were processed

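RNA of whole larvae was hybridised to Affymetrix Zebrafish Gene 1.0 ST arrays, 3 per group. The deposited values are log2 signals of 75212 transcript clusters, made by the authors. The labels name MAS5 without a role, and the background correction and normalization are not given in the sources used here. No value was changed before the fit. Columns of other samples were not present (0). Symbols came from the platform annotation, where 20806 transcript clusters carried 1 symbol, 855 several and 53551 none. Those with several were set aside. Of 83 transcript clusters of members, that with the highest mean was kept for each of 73 genes, and 72 matched a current RefSeq gene of that symbol. No coordinates or sequences are given. No filter on dim signals was applied, and 64 members lay above the median signal.

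The groups were compared with limma (version 3.58.1, run in R 4.3.3) by its moderated linear model (4 residual and 2.69 prior degrees of freedom, two-sided), and p-values were adjusted by Benjamini-Hochberg over all transcript clusters at 0.05. Intervals are 95% intervals of the same fit. Tables were made with Python 3.11.15 and pandas 2.3.3. The fit was tested only on simulated data with independent noise on each array. Those data held no difference between replicate numbers, so the test does not cover that feature of these arrays. Levels of different genes were not tested against each other, and words such as bright or dim only place a signal on the arrays. The members and lists were chosen with earlier results of these data known, so no test was made over a list and no p was adjusted over one.

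Genes were named by a rule: in each striated class and component the member with the lowest p, the 5 members with the lowest p in each direction, the largest difference in each direction, the smooth or non-muscle member with the lowest p, the 2 genes with the lowest p of each list of muscle, heart, smooth muscle and oligodendrocyte genes, and mbpa. Others were chosen after their values were seen.

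The methods describe 3 batches of larvae. Deviations from the group mean had r = 0.241, 0.148 and 0.127 over all transcript clusters for samples with the same number, against -0.171 to 0.0506 for other pairs. Deviations within a group of 3 sum to 0, so these values depend on each other and cannot settle the pairing. The numbers were taken to pair the samples, and a fit with the replicate as a block was compared. Alternatives were quantile normalization, median centring, only transcript clusters above the median signal, an intensity trend, array weights, each array left out in turn, the methods' t-test, linear signals and other choices of transcript cluster. Leaving out both arrays of replicate 1 was chosen after seeing the data.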

Additional observations from a re-analysis of the deposited data

How the results depend on the processing

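Over 16 alternatives with a test, 0 transcript clusters were called at the adjusted p, and the lowest adjusted p of any member was 0.408. Of 776 values of the 46 genes named by the rule, 744 kept their direction and 32 were reversed. The count of lower members at an unadjusted p, 1 in the fit as reported, was 5 with the replicate block, 6 with array weights (7.4% of all genes), 4 with both arrays of replicate 1 left out (7.89% of all genes), 0 above the median signal and 0 by the methods' t-test, and 0 to 7 with an array left out in turn (7 without control replicate 1, 7.91% of all genes). The count of higher members, 0, was 1 with array weights and 1 without both arrays of replicate 1 (4.47% of all genes in each). It was 0 to 1 with an array left out (0 without control replicate 1, 5.23% of all genes). Members without overlap, 1 lower and 0 higher, were 17 and 6 without both arrays of replicate 1 (21.7% and 28.2% of all genes). With an array left out they were 1 to 13 and 0 to 3, with 13 and 2 without control replicate 1 (16.2% and 20.2% of all genes). They were 0 lower above the median signal and 1 higher after quantile normalization. Fewer arrays make separation without overlap more frequent. For either kind of count, shares over all genes were not counted after quantile normalization, above the median signal or without other single arrays. The smooth or non-muscle median ranged from -0.18 to 0.065 with an array left out. The replicate block changed no other call.

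Reversed without both arrays of replicate 1 were mybpc1 (0.018), mybpc3 (0.11), myl13 (0.14), tnnc1a (-0.011), tnnc1b (0.11) and tnnt3a (0.038), and with array weights tnnc1b (0.013) and tnnt2b (-0.0037). With an array left out in turn the ranges that crossed 0 were -0.082 to 0.40 for actc1a, -0.12 to 0.23 for actc1b, -0.34 to 0.081 for actn2b, -0.33 to 0.22 for mybpc1, -0.26 to 0.12 for mybpc3, -0.65 to 0.35 for myl1, -0.43 to 0.29 for myl13, -0.50 to 0.28 for tnnc1b, -0.76 to 0.033 for tnnc2.1, -0.22 to 0.0087 for tnni1b, -0.25 to 0.086 for tnnt1, -0.19 to 0.11 for tnnt2a, -0.51 to 0.27 for tnnt3a, -0.55 to 0.043 for tpm2 and -0.28 to 0.18 for tpma. The cause was not tested.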

Other observations

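For 10 members a second transcript cluster was measured, and its difference had the other sign in 4. In these the second transcript cluster gave 0.11 (SE 0.45) for acta1b, -0.09 (SE 0.19) for tpm3, -0.09 (SE 0.29) for myh7 and 0.03 (SE 0.22) for smyhc3, all smaller than their standard errors. A further 7 transcript clusters carried a member symbol together with another symbol and could not be given to 1 gene. The one shared by myhz2 and myhz1.3, fast myosin heavy chains, was 11.50, 11.98 and 12.23 in control and 11.87, 11.87 and 12.03 in treated larvae. The one shared by myhz1.2 and myhz1.1 was 11.81, 11.92 and 12.13 in control and 12.05, 12.00 and 12.12 in treated larvae. Both pairs of groups overlapped, with differences of 0.02 (SE 0.21) and 0.10 (SE 0.14). The others of the 7 had negative differences and groups that overlapped. These were -0.75 (SE 0.67) for the one with actc1a, -0.35 (SE 0.30) with mybpc2a and -0.24 (SE 0.20) with myhz1.1l. They were -0.20 (SE 0.15) for the one with tpm1 and -0.07 (SE 0.26) with tnnt2c. The titin cap gene tcap, whose product binds titin at the Z-disc, was 7.82 in the metronidazole array of replicate 1 and between 5.55 and 6.11 in the other 5 arrays, which left a difference of 0.74 (SE 0.51). The transcription factor gene myf6 was 8.47, 7.43 and 7.52 in control and 6.82, 7.41 and 8.16 in treated larvae, with the arrays of replicate 1 highest in control and lowest in treated larvae. The genes of this paragraph were chosen after their values were seen.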
